A study of Mus musculus with 9 samples.

Results

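The genes of the transforming growth factor beta (TGF-beta) and bone morphogenetic protein (BMP) pathways were followed in mouse embryonic fibroblasts (MEFs) that lack either of 2 pairs of histone H3 lysine 9 (H3K9) methyltransferases. The set was given as a list of 49 gene symbols, and each symbol matched 1 Ensembl gene of the 47937 genes in the count table. It holds 16 ligands, 5 matrix storage and processing genes, 11 receptors and co-receptors, 5 secreted antagonists or follistatin family genes, 8 SMADs and 4 ID genes.

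Total RNA of 9 MEF cultures was sequenced, 3 per genotype. The labels give genotype and medium and refer to the study for growth, so the account of the lines is taken from that study and is assumed to hold for these cultures. There, WT cells are the parental line, MEFs with a conditional Eset1 allele that tamoxifen can delete, and this allele is shared by all 3 genotypes. The S1S2 genotype is deficient for the Suv39h1 and Suv39h2 genes. The G9Gl genotype is deficient for G9a (gene Ehmt2) and Glp (gene Ehmt1). According to the study, both pairs were disrupted in the parental line with CRISPR/Cas9 by frameshifts in the catalytic domain, and each mutant is a clone picked for absence of the proteins. The methods add that, after the disruption, inducible Cre with a puromycin resistance gene was put back and the lines were kept under puromycin. They do not say whether the parental line was handled in the same way. Genotype, clone and any difference in this construct or drug therefore cannot be told apart, and p-values measure the spread between cultures of a line. The age of the embryos and any drug given to these cultures are not stated in the labels, which name standard medium alone.

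Ligands of the TGF-beta superfamily are secreted as dimers and bind pairs of type I and type II receptor kinases on the cell surface. TGF-betas and activins act mainly through SMAD2 and SMAD3, BMPs mainly through SMAD1, SMAD5 and SMAD9, and both groups share SMAD4. In fibroblasts the TGF-beta branch is known for driving matrix and contractile genes, whereas the BMP branch is known for inducing the ID genes and the inhibitory SMAD6. Outside the cell, latent TGF-beta is stored by LTBP proteins, and ligands are trapped by antagonists such as gremlin, noggin and follistatin.

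The libraries held 21319778 to 32157623 counts, and levels are given as CPM, the counts of a gene per 1000000 counts of its library, after TMM scaling. A floor of 3 counts in a library corresponds to 0.0923 to 0.141 CPM, a limit that covers counting error only. Transcripts of the targeted genes were still present. Suv39h1 was at 43.1, 44.2 and 38.3 CPM in the S1S2 libraries and at 113, 108 and 103 CPM in WT, while Suv39h2 was higher in the libraries labelled S1S2, at 57.4, 55.5 and 52.7 CPM against 33.2, 34.2 and 34.4 CPM. Ehmt2 was at 57.4, 53.5 and 51.9 CPM in G9Gl against 129, 132 and 114 CPM in WT, and Ehmt1 at 51.8, 50.3 and 48.6 CPM against 102, 106 and 103 CPM. Against WT, the log2 fold change of Suv39h1 was -1.36 in S1S2 and -0.07 in G9Gl. Those of Ehmt2 and Ehmt1 were -1.20 and -1.04 in G9Gl and 0.40 and -0.21 in S1S2. Each of these genes was thus lowest in the genotype named for its loss. A frameshift need not lower a transcript, so the level of Suv39h2 does not test the S1S2 label. The summed level of 14 fibroblast markers was 10015 to 11515 CPM in WT, 7471 to 7541 CPM in S1S2 and 7936 to 8794 CPM in G9Gl, and Lum, a defining marker, was at or near 0 throughout. Collagens made up most of the sum in WT, with Col1a1 at 3405 ± 460.0, Col1a2 at 2395 ± 90.9 and Col3a1 at 1527 ± 42.4 CPM, and these also count among TGF-beta responsive genes. Of the 13 markers tested, 9 were lower and 2 higher in S1S2 at an adjusted p of at most 0.01 by edgeR (all genes in either direction: 37.9%), and 8 lower and 2 higher in G9Gl (all genes: 35.0%). Prrx1 (log2 fold change -2.44), Pdgfra (-2.04), Dcn (-1.71) and Thy1 (-1.29) were among the lower ones in S1S2, and Vim (0.72) and Twist2 (0.45) were the higher ones. In G9Gl Dcn (-5.17), Pdgfra (-1.85) and Pdgfrb (-1.34) were lower, and Thy1 (2.94) and S100a4 (0.28) higher. The 7 epithelial markers summed to 0.298 to 0.58 CPM in WT, 5.10 to 5.75 in S1S2 (mostly Krt8) and 4.49 to 5.45 in G9Gl (mostly Krt14), with Krt5 at 0. In bulk RNA, fewer cells of a type and less RNA per cell cannot be told apart.

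Of the 49 genes, 41 had enough counts to be tested. Genes were called at an adjusted p of at most 0.01, from the quasi-likelihood test of edgeR with Benjamini-Hochberg adjustment over all 15540 genes tested, together with a fold change of at least 2. All adjusted p-values below are from this test, and log2 fold changes carry the SE of the replicates. S1S2 and G9Gl were compared with the same 3 WT libraries, so their values against WT are not independent. Between S1S2 and WT, 9 of the 41 were called, which is 22.0% against 9.0% of all genes tested. Bmp6, Nog, Fst and Smad9 rose, where 4.66% of all genes rose, and Bmp3, Bmp4, Ltbp2, Bmpr1b and Grem1 fell, where 4.34% of all genes fell. Between G9Gl and WT, 9 of 41 were likewise called, against a background of 10.2%. Inhba, Inhbb, Ltbp2, Bmpr1b and Nog rose (all genes: 6.77%), and Bmp3, Bmp6, Grem1 and Id3 fell (all genes: 3.40%). The direct comparison of G9Gl with S1S2 called 13 of 41, or 31.7%, against 13.1% of all genes. In it Inhba, Inhbb, Ltbp2, Ltbp4, Bmpr1b, Eng and Grem1 were higher in G9Gl (all genes: 7.97%), and Bmp3, Bmp6, Fst, Smad6, Smad9 and Id3 were lower (all genes: 5.08%).

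Without the fold cutoff, 23 of 41 passed the adjusted p in S1S2 (all genes: 37.9%), 22 in G9Gl (all genes: 35.0%) and 28 between the mutants (all genes: 42.6%). With glmTreat, edgeR's test of whether a change exceeds 2-fold rather than whether it differs from 0, 12 calls were lost. They were Bmp3, Bmp6, Ltbp2 and Smad9 in S1S2 (adjusted p = 0.0391 to 0.429), Nog and Id3 in G9Gl, and Eng, Grem1, Fst, Smad6, Smad9 and Id3 between the mutants (adjusted p = 0.094 to 1), which left 5, 7 and 7 calls against 4.73%, 6.72% and 8.63% of all genes. The median log2 fold change of the 41 was 0.03 in S1S2 and 0.06 in G9Gl, and that of all genes tested was -0.003 and -0.007. The list was thus centred near 0 in both mutants, with 13 genes higher and 10 lower past the adjusted p in S1S2 and 14 higher and 8 lower in G9Gl. In all, 15 of the 41 were called in at least 1 comparison (all genes: 17.1%), 6 of them against WT in both mutants (all genes: 3.98%), and 8 did not pass the adjusted p in any (all genes: 40.6%). In Bmp6, Ltbp2, Ltbp4 and Bmpr1b the mutants moved in opposite directions, each past the adjusted p, with the difference between them called, where 3.28% of all genes did so. The 15 are 5 ligands, 2 LTBPs, 2 of the receptors and co-receptors, 3 antagonists, 2 SMADs and 1 ID gene.

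**Figure D1:**
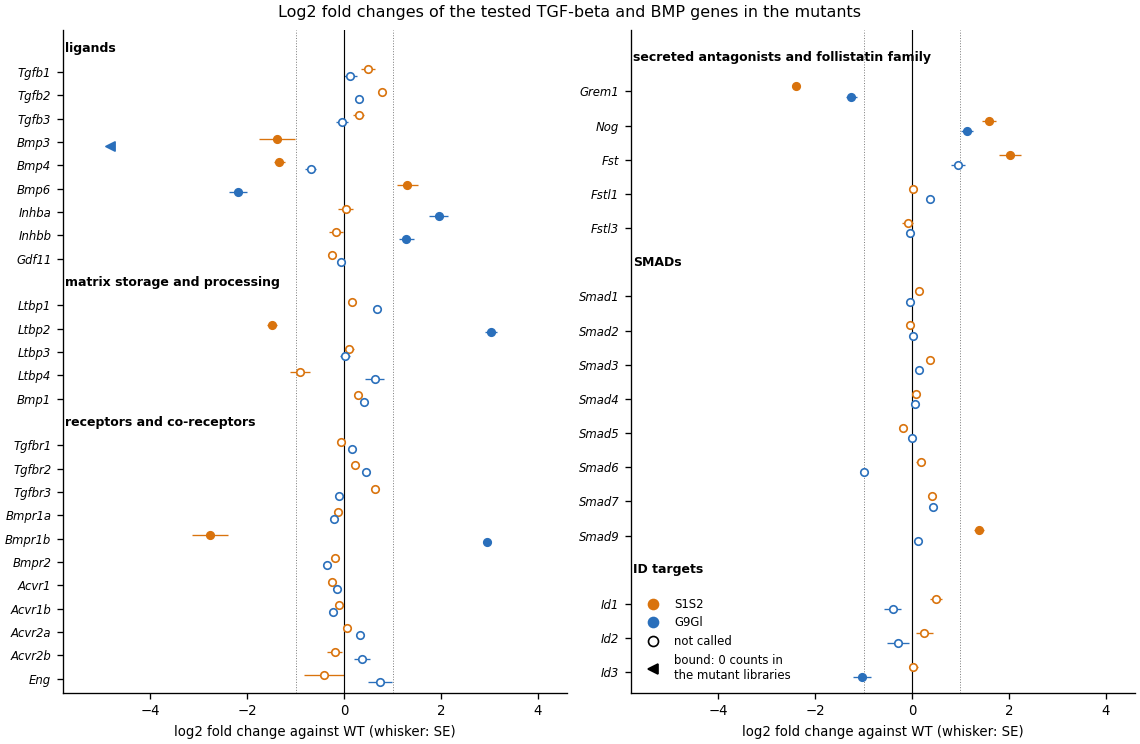
Log2 fold change against WT (x axis) of the 41 tested genes (y axis, by role) in S1S2 and in G9Gl, with the SE of 3 replicates per genotype as whiskers, filled points for called genes and dotted lines at a 2-fold change. Receptors and SMADs lie within the 2-fold lines apart from Bmpr1b and Smad9, while Bmp6, Ltbp2, Ltbp4 and Bmpr1b lie on opposite sides in the mutants, and the triangle for Bmp3 marks a lower bound.

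Promoter sequences are shown for 4 genes, in pairs by direction between the mutants. Id3 and Smad6 are BMP targets that were lower in G9Gl than in S1S2, and Bmpr1b and Ltbp2 were low in S1S2 and high in G9Gl. Each window of 300 bases spans a RefSeq start, most of it upstream, and is given on GRCm38.p6, 5′ to 3′ on the gene's strand, and capitals mark matches of the motifs named below. The Id3 window is chr4:136143572-136143871, plus strand, that of Smad6 is chr9:64022010-64022309, minus strand, that of Bmpr1b, the farthest upstream of its 3 listed starts, is chr3:141982215-141982514, minus strand, and that of Ltbp2 is chr12:84876442-84876741, minus strand.
Id3: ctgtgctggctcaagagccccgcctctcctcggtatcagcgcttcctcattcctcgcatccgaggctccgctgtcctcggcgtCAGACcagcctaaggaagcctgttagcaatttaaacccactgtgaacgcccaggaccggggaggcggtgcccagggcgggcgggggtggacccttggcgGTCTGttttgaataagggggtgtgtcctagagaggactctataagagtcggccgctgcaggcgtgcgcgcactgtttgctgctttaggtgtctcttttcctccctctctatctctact
Smad6: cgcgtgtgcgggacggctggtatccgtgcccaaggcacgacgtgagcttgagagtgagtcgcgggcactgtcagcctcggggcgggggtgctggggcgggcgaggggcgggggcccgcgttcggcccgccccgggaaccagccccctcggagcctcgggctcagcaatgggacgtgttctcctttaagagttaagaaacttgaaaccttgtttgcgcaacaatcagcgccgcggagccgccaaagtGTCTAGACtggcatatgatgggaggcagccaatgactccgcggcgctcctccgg
Bmpr1b: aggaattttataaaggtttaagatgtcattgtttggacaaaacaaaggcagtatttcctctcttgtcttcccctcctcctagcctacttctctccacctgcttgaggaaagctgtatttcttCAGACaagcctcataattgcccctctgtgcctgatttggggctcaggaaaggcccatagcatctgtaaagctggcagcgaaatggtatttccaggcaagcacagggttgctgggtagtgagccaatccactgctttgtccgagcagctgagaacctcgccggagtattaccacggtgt
Ltbp2: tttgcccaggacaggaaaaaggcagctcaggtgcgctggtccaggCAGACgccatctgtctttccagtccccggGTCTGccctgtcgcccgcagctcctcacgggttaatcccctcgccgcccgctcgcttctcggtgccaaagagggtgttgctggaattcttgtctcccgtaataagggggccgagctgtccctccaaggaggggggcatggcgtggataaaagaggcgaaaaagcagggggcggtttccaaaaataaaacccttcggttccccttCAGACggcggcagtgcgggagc

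A search on both strands covered GTCTAGAC, the palindromic SMAD-binding sequence, its shorter relative CAGAC with the reverse complement GTCTG, and GGCGCC, a GC-rich sequence that SMADs can bind. None of these overlaps another in the windows shown. The Smad6 window held GTCTAGAC, which occurred in 0.213% of all 32851 RefSeq promoter windows and in 1 of 44 windows of the pathway genes. CAGAC stood in 47.7% of the pathway windows and in 49.6% of all windows, so its presence at Id3, Ltbp2 and Bmpr1b does not set them apart. GGCGCC was found in 29.5% of the pathway windows against 11.9% of all, in none of those shown. The pathway windows, which cover 35 of the 49 genes, were richer in G and C than all windows, with a median of 65.0% against 52.7%, and richer in CpG, with a median observed to expected ratio of 0.717 against 0.384. These matches describe letters in a window and show no binding.

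Levels across genes were compared per kilobase of exon. Fstl1, a secreted glycoprotein of the follistatin family, was the highest member in each genotype, at 124 ± 5.23 CPM per kb in WT (SD, n = 3), 125 ± 2.37 in S1S2 and 159.8 ± 4.24 in G9Gl. Tgfbr2, the type II TGF-beta receptor, came next at 58.6 ± 3.52, 68.5 ± 1.41 and 79.7 ± 1.58 CPM per kb. Ltbp1 followed at 41.5 ± 3.43, 46.3 ± 1.75 and 66.6 ± 2.11 CPM per kb. The type I BMP receptor Bmpr1a stood behind Ltbp1, and its libraries overlapped those of Ltbp1 in WT but not in the mutants. In WT the next places went to Bmp4 at 32.2 ± 4.10 and to its antagonist Grem1 at 26.3 ± 0.754 CPM per kb. Neither kept that place in S1S2, where Grem1 was at 4.98 ± 0.136 CPM per kb and Smad4 stood next after Bmpr1a at 22.0 ± 1.05.

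**Figure D2:**
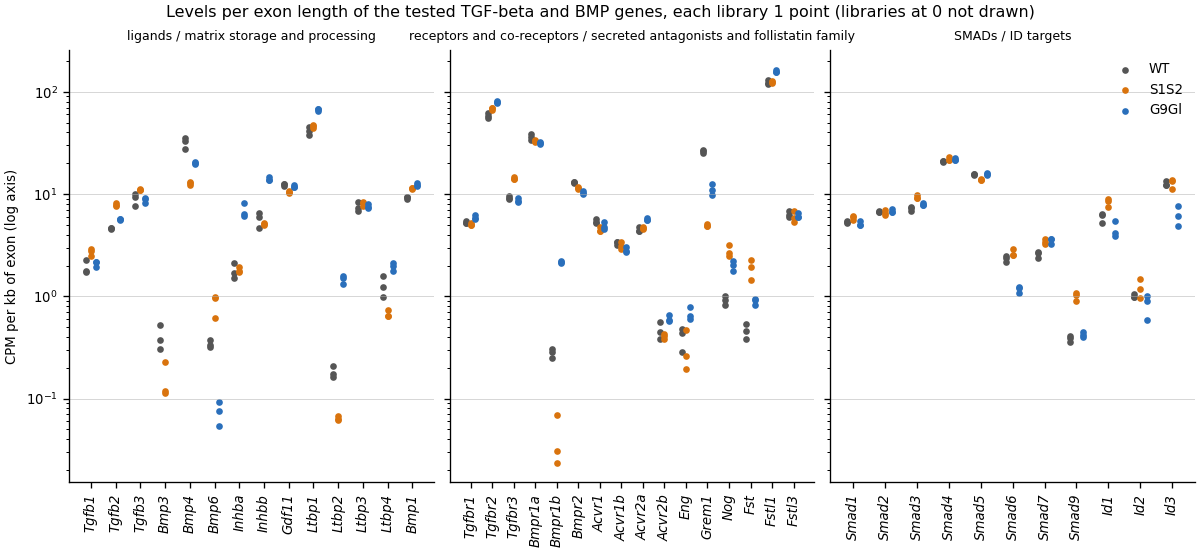
CPM per kb of exon on a log axis for the 41 tested genes, each library as 1 point, WT in grey, S1S2 in orange and G9Gl in blue. Fstl1, Tgfbr2, Ltbp1 and Bmpr1a are highest in each genotype. Wide gaps between genotypes include those of Bmp3, Bmp6, Ltbp2 and Bmpr1b at low levels and that of Grem1 at a higher level.

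Among the ligands, 9 of 16 were tested. Bmp4 (chromosome 14, 46383520 to 46390669, minus strand on GRCm38), a BMP ligand of mesenchyme, was the most abundant BMP transcript per length. It was at 74.9, 80.2 and 62.3 CPM in the WT libraries, 27.6, 29.5 and 28.6 in S1S2 and 44.0, 45.0 and 45.9 in G9Gl. WT was highest, S1S2 lowest, and no genotypes overlapped. The log2 fold change was -1.34 ± 0.11 (S1S2, adjusted p = 1.68e-10) and -0.69 ± 0.11 (G9Gl, adjusted p = 3.79e-07), the latter short of a 2-fold change.

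Bmp6 (chromosome 13, 38345107 to 38500302, plus strand), another BMP ligand and known for inducing hepcidin in the liver, moved in opposite directions in the mutants. Its WT libraries were at 1.45, 1.26 and 1.29 CPM, those of S1S2 at 3.77, 2.41 and 3.81 and those of G9Gl at 0.211, 0.359 and 0.294. S1S2 was above WT and G9Gl below it in every library. The log2 fold change was 1.30 ± 0.22 in S1S2 (adjusted p = 7.88e-05), -2.19 ± 0.19 in G9Gl (adjusted p = 1.75e-05) and -3.50 ± 0.28 between the mutants (adjusted p = 1.21e-08). Of the 75-base stretches of its exons, 3.92% also occur in Txndc5, an antisense neighbour, and whether the counting used strand is not stated.

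Bmp3 (chromosome 5, 98854415 to 98884396, plus strand), a ligand known as an antagonist of other BMPs in bone, was not detected in the G9Gl libraries. WT libraries held 2.25, 2.78 and 3.84 CPM and S1S2 libraries 1.70, 0.875 and 0.846 CPM, while no read was counted in any G9Gl library. The S1S2 libraries were all below WT, with a log2 fold change of -1.38 ± 0.38 (adjusted p = 0.00084). Against the floor of 3 counts per library, G9Gl was at least 28.5-fold lower than WT (adjusted p = 3.87e-08) and at least 11-fold lower than S1S2 (adjusted p = 3.06e-06).

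The activin subunits rose in G9Gl alone of the mutants. Inhba (chromosome 13, 16011851 to 16031621, plus strand), which encodes the beta A subunit of activin A, was at 10.7, 13.6 and 9.64 CPM in WT, 12.3, 11.3 and 11.1 in S1S2 and 39.1, 52.2 and 40.6 in G9Gl. Inhbb (chromosome 1, 119415465 to 119422248, minus strand), which encodes the beta B subunit, was at 27.7, 25.7 and 20.01 CPM in WT, 21.7, 22.4 and 21.2 in S1S2 and 57.7, 62.7 and 58.7 in G9Gl. For both, every G9Gl library lay above all others, whereas WT and S1S2 overlapped. Inhba rose by 1.96 ± 0.20 on the log2 scale against WT (adjusted p = 2.26e-10) and differed by 1.93 ± 0.14 from S1S2 (adjusted p = 3.19e-10). The matching values of Inhbb were 1.29 ± 0.15 (adjusted p = 8.83e-10) and 1.45 ± 0.04 (adjusted p = 2.12e-10).

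The 3 TGF-beta ligand genes changed by less than 2-fold. Tgfb2 was at 26.6 ± 0.367 CPM in WT (SD, n = 3), 45.5 ± 1.30 in S1S2 and 32.7 ± 0.389 in G9Gl, with log2 fold changes of 0.77 ± 0.03 (adjusted p = 1.55e-09) and 0.30 ± 0.02 (adjusted p = 0.000141). Tgfb1 and Tgfb3 passed the adjusted p in S1S2 alone against WT, with log2 fold changes of 0.50 ± 0.14 and 0.30 ± 0.12. Between the mutants all 3 were lower in G9Gl, by 0.37, 0.48 and 0.35 on the log2 scale, each past the adjusted p. Gdf11, a relative of myostatin, was at 50.4 ± 1.25, 42.5 ± 1.24 and 48.1 ± 1.13 CPM in WT, S1S2 and G9Gl. Its log2 fold change of -0.25 ± 0.03 in S1S2 passed the adjusted p (0.000511).

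The other 7 ligands fell below the filter on low counts. Bmp2, Bmp5 and Gdf10 had no read in any library, which allows up to 0.141 CPM in the shallowest. Bmp7, Gdf5 and Gdf6 stayed at or under 0.298 CPM in every library. Gdf15, a stress-induced ligand of a brain receptor, held 0, 4 and 0 counts in WT, 11, 8 and 13 in S1S2 and 0, 0 and 1 in G9Gl. Its S1S2 libraries were the highest, but the gene was not tested.

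**Figure D3:**
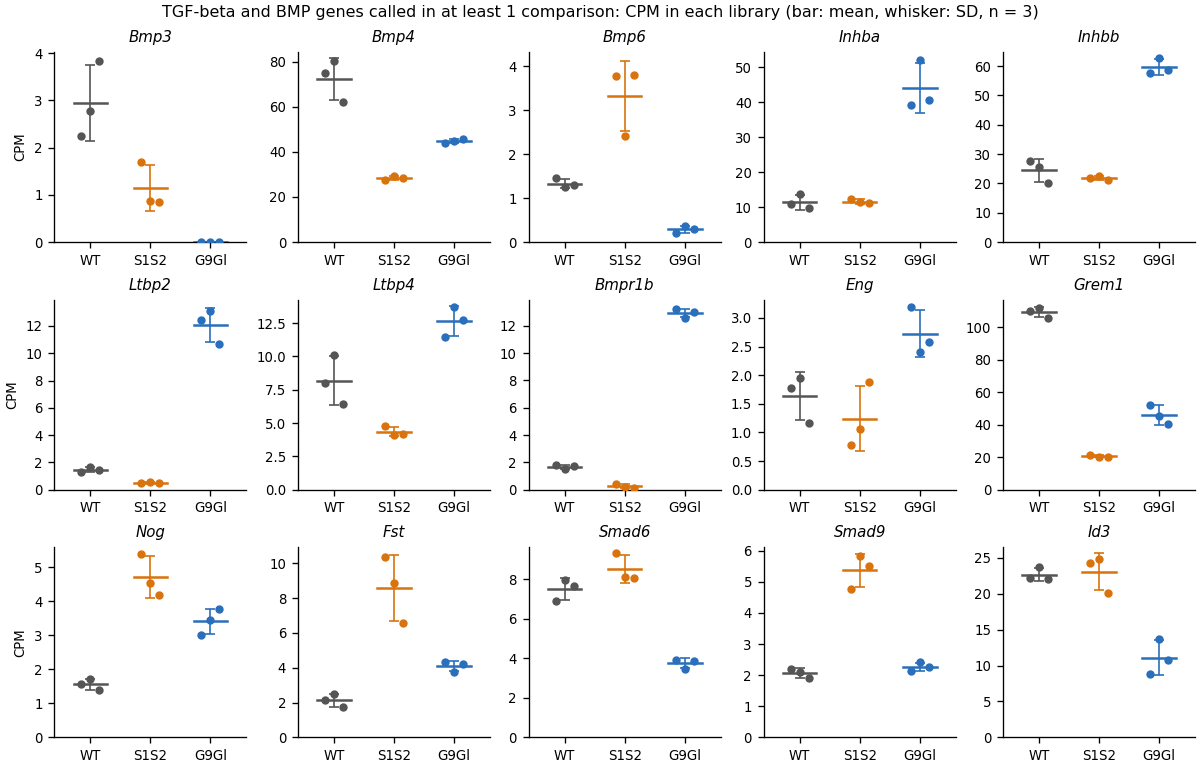
CPM (y axis, from 0) of the 15 genes called in at least 1 comparison, each library as 1 point by genotype, with the mean as a bar and the SD of 3 libraries as a whisker. Bmp3 is at 0 in the 3 G9Gl libraries, Bmpr1b and Ltbp2 are high in G9Gl alone, and the S1S2 libraries overlap WT in Inhba, Inhbb, Eng and Id3.

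Of the storage and processing genes, Ltbp2 (chromosome 12, 84783212 to 84876532, minus strand) moved most. LTBP2 is the LTBP that does not bind latent TGF-beta and sits on fibrillin microfibrils. The WT libraries were at 1.32, 1.69 and 1.42 CPM, the S1S2 libraries at 0.506, 0.547 and 0.517 and the G9Gl libraries at 12.4, 13.1 and 10.7. The genotypes did not overlap, with S1S2 lowest and G9Gl highest. Log2 fold changes were -1.48 ± 0.10 in S1S2 (adjusted p = 5.35e-05), 3.03 ± 0.13 in G9Gl (adjusted p = 5.52e-12) and 4.51 ± 0.09 between the mutants (adjusted p = 5.08e-13). Its exons share 8.21% of their 75-base stretches with the antisense gene D030025P21Rik.

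Ltbp4 (chromosome 7, 27305136 to 27337692, minus strand), which encodes an LTBP for TGF-beta 1 in elastic tissue, followed the same order at smaller size. Libraries were at 8.0, 10.1 and 6.41 CPM in WT, 4.78, 4.12 and 4.19 in S1S2 and 11.5, 13.7 and 12.7 in G9Gl. None of the genotypes overlapped, although the WT libraries were spread. Against WT the log2 fold changes of -0.91 ± 0.20 (adjusted p = 8.88e-05) and 0.63 ± 0.20 (adjusted p = 0.000669) were each under 2-fold, and the mutants differed by 1.54 ± 0.10 (adjusted p = 9.9e-08). Without WT replicate 3 the value in S1S2 reached -1.06 and was called.

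Ltbp1, the main carrier of latent TGF-beta, was higher in G9Gl at 712 ± 22.6 CPM against 443 ± 36.6 in WT, a log2 fold change of 0.68 ± 0.07 (adjusted p = 9.97e-09). In S1S2 it was at 495 ± 18.7 CPM and did not pass (adjusted p = 0.0203). Ltbp3 was at 67.8 ± 7.41, 73.2 ± 3.34 and 68.8 ± 3.83 CPM and passed in no comparison. Bmp1, which despite its name is a procollagen C-proteinase that also cleaves BMP antagonists such as chordin, passed in both mutants, at log2 fold changes of 0.29 ± 0.02 and 0.42 ± 0.03.

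Bmpr1b was the receptor gene called in all 3 comparisons. It encodes a type I BMP receptor best known from cartilage and ovary (chromosome 3, 141837136 to 142169425, minus strand). WT libraries were at 1.82, 1.49 and 1.71 CPM, S1S2 libraries at 0.414, 0.182 and 0.141 and G9Gl libraries at 13.2, 12.6 and 13.0. The S1S2 values rest on 9, 5 and 3 counts, the last at the floor, while the G9Gl libraries held 376, 350 and 399 counts. S1S2 was lowest, G9Gl highest, and the genotypes stood apart in every library. The log2 fold changes were -2.77 ± 0.37 in S1S2 (adjusted p = 4.01e-07), 2.95 ± 0.08 in G9Gl (adjusted p = 9.01e-12) and 5.72 ± 0.36 between the mutants (adjusted p = 2.06e-13). No 75-base stretch of its exons occurs in another gene.

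The related type I receptor Bmpr1a, the broadly expressed one, was at 230.3 ± 14.9, 209.7 ± 4.18 and 199.7 ± 3.88 CPM in WT, S1S2 and G9Gl, with log2 fold changes of -0.14 (adjusted p = 0.0217) and -0.21 (adjusted p = 0.00129). Per exon length, Bmpr1a exceeded Bmpr1b by 130.00 ± 10.1 times in WT (SD, n = 3) and by 14.5 ± 0.0924 times in G9Gl. In S1S2, where Bmpr1b rests on 3 to 9 counts, the ratio ran from 471 to 1378. Bmpr1b was thus below Bmpr1a in every library.

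Eng (chromosome 2, 32646595 to 32682669, plus strand) encodes endoglin, a co-receptor of endothelial cells that fibroblasts also carry. Its libraries were at 1.78, 1.95 and 1.16 CPM in WT, 0.781, 1.06 and 1.88 in S1S2 and 3.19, 2.41 and 2.58 in G9Gl. G9Gl was above the other genotypes, and S1S2 overlapped WT. The call between the mutants, at a log2 fold change of 1.15 ± 0.37 (adjusted p = 0.00161), was lost without S1S2 replicate 1 (log2 fold change 0.92, adjusted p = 0.0117) or without S1S2 replicate 2 (1.04, adjusted p = 0.0118). Of 6 endothelial markers, Cdh5 was called higher in G9Gl and Kdr in S1S2, their summed level was 0.123 to 0.193 CPM in WT, 1.55 to 1.75 in S1S2 and 0.79 to 2.35 in G9Gl, Emcn was at 0 in each library, and their part in the Eng values was not tested.

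The remaining 9 receptors moved by less than 2-fold. Tgfbr3, the co-receptor betaglycan, was at 60.5 ± 2.19 CPM in WT, 93.6 ± 1.39 in S1S2 and 56.4 ± 2.58 in G9Gl, higher in S1S2 by 0.63 ± 0.03 on the log2 scale (adjusted p = 8.77e-09). Tgfbr2 rose in both mutants, by 0.22 ± 0.05 (adjusted p = 0.000533) and 0.44 ± 0.05 (adjusted p = 3.09e-07), and Bmpr2, the type II BMP receptor, fell in both, with log2 fold changes of -0.19 ± 0.02 and -0.34 ± 0.03. Tgfbr1, the type I partner of Tgfbr2, was at 34.6 ± 0.534, 32.9 ± 0.93 and 38.7 ± 1.45 CPM and passed only between the mutants (0.23). Of the genes named for activin receptors, Acvr1, which also serves BMPs, fell in S1S2 (-0.26, adjusted p = 0.00744), Acvr2a rose in G9Gl (0.33, adjusted p = 0.000134), and Acvr1b and Acvr2b passed in no comparison. Acvr2b had the lowest level of these, at 1.83 ± 0.356 CPM in WT.

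Of the 5 secreted antagonists and follistatin family genes, 3 were called in S1S2 (all genes: 9.0%). Grem1 (chromosome 2, 113746164 to 113758646, minus strand), whose product gremlin traps BMP2 and BMP4, was at 110.1, 112 and 106 CPM in WT, 21.3, 20.3 and 20.4 in S1S2 and 52.4, 45.1 and 40.3 in G9Gl. Both mutants were far below WT, and S1S2 lay below G9Gl in every library. The log2 fold change was -2.40 ± 0.03 in S1S2 (adjusted p = 8.43e-14), -1.25 ± 0.11 in G9Gl (adjusted p = 9.31e-11) and 1.15 ± 0.11 between them (adjusted p = 1.11e-09).

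Nog (chromosome 11, 89300638 to 89302332, minus strand), which encodes the BMP antagonist noggin, moved the other way. Its libraries stood at 1.57, 1.72 and 1.39 CPM in WT, 5.38, 4.52 and 4.19 in S1S2 and 3.02, 3.45 and 3.75 in G9Gl. All mutant libraries were above all WT libraries. The rise was 1.59 ± 0.14 on the log2 scale (S1S2, adjusted p = 4.56e-07) and 1.13 ± 0.12 (G9Gl, adjusted p = 2.64e-05), and the mutants did not differ past the threshold (adjusted p = 0.0157). Per exon length, Grem1 exceeded Nog by 28.8 ± 2.30 times in WT, 1.82 ± 0.185 times in S1S2 and 5.61 ± 1.37 times in G9Gl (SD, n = 3). Grem1 thus remained the more abundant of these antagonist transcripts in each genotype, by a much smaller margin in S1S2.

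Fst (chromosome 13, 114452290 to 114458951, minus strand), which encodes the activin-binding protein follistatin, was at 2.12, 2.48 and 1.77 CPM in WT, 10.3, 8.86 and 6.58 in S1S2 and 4.32, 3.77 and 4.24 in G9Gl. S1S2 was highest and WT lowest, with no overlap. It rose in S1S2 by 2.02 ± 0.23 on the log2 scale (adjusted p = 2.95e-08), and the value in G9Gl, 0.95 ± 0.15 (adjusted p = 0.000306), was just under 2-fold, and was called without WT replicate 2 (1.07) or G9Gl replicate 2 (1.01). The call between the mutants, -1.06 ± 0.20 (adjusted p = 1.69e-05), was lost without S1S2 replicate 1, at a log2 fold change of -0.92.

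The ratio of Inhba to Fst per exon length, a ligand subunit over its trap, was 3.83 ± 0.17 in WT, 0.993 ± 0.191 in S1S2 and 7.77 ± 1.88 in G9Gl. It was lower in S1S2, where Fst rose, and higher in G9Gl, where Inhba rose, and the genotypes did not overlap. Fstl1 was higher in G9Gl, by 0.37 ± 0.04 (adjusted p = 1.32e-06), and not in S1S2 (0.02 ± 0.04, adjusted p = 0.771). Fstl3, another activin binder, was at 15.6 ± 0.984, 14.7 ± 1.90 and 15.1 ± 0.703 CPM and passed in no comparison. Its exons share 45.7% of their 75-base stretches with the antisense gene Prss57, so its level is uncertain.

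**Figure D4:**
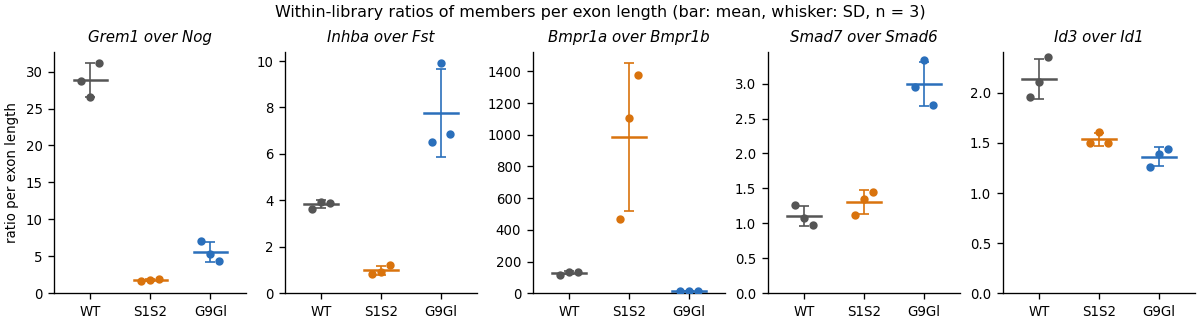
Ratio of a pair of transcripts per exon length within each library (y axis, from 0) for 5 pairs, by genotype, with the mean as a bar and the SD of 3 libraries as a whisker. Grem1 over Nog is highest in WT, Inhba over Fst and Smad7 over Smad6 are highest in G9Gl, and Bmpr1a over Bmpr1b is highest and most spread in S1S2.

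Most SMADs that carry the signal moved by less than 2-fold. Smad2 was at 58.9 ± 0.493, 57.4 ± 3.14 and 60.2 ± 2.01 CPM in WT, S1S2 and G9Gl, and the shared Smad4 at 77.7 ± 1.24, 81.8 ± 3.90 and 80.8 ± 1.8 CPM. Smad1, Smad2 and Smad4 passed in no comparison. Smad3 rose in S1S2 by 0.38 ± 0.05 on the log2 scale (adjusted p = 1.57e-05), and Smad5 fell there with a log2 fold change of -0.19 ± 0.01 (adjusted p = 0.000725), both well under 2-fold.

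Smad9 (chromosome 3, 54755582 to 54801257, plus strand), the least abundant of the SMADs that carry BMP signals, was the exception. It stood at 2.18, 2.12 and 1.90 CPM in WT, 4.78, 5.83 and 5.50 in S1S2 and 2.14, 2.41 and 2.25 in G9Gl. The S1S2 libraries lay above all others, and WT and G9Gl overlapped. The log2 fold change was 1.38 ± 0.10 in S1S2 (adjusted p = 5.17e-07) and -1.25 ± 0.10 between the mutants (adjusted p = 1.17e-06).

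Smad6 (chromosome 9, 63953076 to 64022059, minus strand), an inhibitory SMAD of the BMP branch whose promoter is printed above, was at 6.92, 7.97 and 7.67 CPM in WT, 9.33, 8.13 and 8.09 in S1S2 and 3.93, 3.48 and 3.85 in G9Gl. The G9Gl libraries were lowest, and those of S1S2 lay just above WT, a difference that did not pass (adjusted p = 0.177). Its log2 fold change in G9Gl was -0.999 ± 0.08 (adjusted p = 1.24e-06), barely short of the cutoff, which it passed without WT replicate 1 (-1.06), G9Gl replicate 1 (-1.03) or G9Gl replicate 3 (-1.02), and the difference from S1S2 was -1.18 ± 0.09 (adjusted p = 1.47e-07). The other inhibitory SMAD, Smad7, rose in both mutants, by 0.41 ± 0.08 (adjusted p = 0.000674) and 0.43 ± 0.09 (adjusted p = 0.000362). Per exon length, Smad7 over Smad6 was 1.11 ± 0.143 in WT, 1.30 ± 0.169 in S1S2 and 3.0 ± 0.319 in G9Gl. The G9Gl libraries stood apart, and those of WT and S1S2 overlapped.

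The ID genes encode helix-loop-helix proteins that block differentiation factors. Id3 (chromosome 4, 136143497 to 136145755, plus strand) was the most abundant of them, at 22.2, 23.8 and 22.1 CPM in WT, 24.3, 24.8 and 20.2 in S1S2 and 8.81, 13.7 and 10.8 in G9Gl. Every G9Gl library was below every other library, and WT and S1S2 overlapped. Id3 fell in G9Gl with a log2 fold change of -1.03 ± 0.19 (adjusted p = 9.84e-07) against WT and -1.06 ± 0.21 (adjusted p = 6.75e-07) against S1S2. Both calls lie at the fold cutoff. The first was lost without G9Gl replicate 1 (-0.89) or WT replicate 2 (-0.997), and the second without G9Gl replicate 1 (-0.92) or S1S2 replicate 2 (-0.998).

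Id1 was at 6.92 ± 0.715 CPM in WT, 9.74 ± 0.893 in S1S2 and 5.26 ± 0.995 in G9Gl. Id1 was higher in S1S2 by 0.49 ± 0.12 (adjusted p = 0.00379), its value in G9Gl of -0.40 ± 0.17 did not pass (adjusted p = 0.0218), and G9Gl against S1S2 gave -0.89 ± 0.17 (adjusted p = 2.04e-05), which was called without G9Gl replicate 2 (-1.05). Id2, at 2.46 ± 0.109, 2.93 ± 0.621 and 2.02 ± 0.521 CPM, passed in no comparison, and Id4 was below the filter with at most 6 counts in a library. The mean level of each tested ID gene was lowest in G9Gl, without a call for Id1 or Id2, and the ratio of Id3 to Id1 per exon length was 2.14 ± 0.2 in WT, 1.53 ± 0.0652 in S1S2 and 1.36 ± 0.0936 in G9Gl.

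Beyond these 49, a list of 104 further pathway genes was examined, of which 73 were tested. Called were 19 in S1S2 (6 higher, 13 lower), 21 in G9Gl (13 higher, 8 lower) and 24 between the mutants (16 higher in G9Gl, 8 lower), which is 26.0%, 28.8% and 32.9% of the tested ones against 9.0%, 10.2% and 13.1% of all genes. By direction, the shares of all genes were 4.66% higher and 4.34% lower in S1S2, 6.77% and 3.40% in G9Gl, and 7.97% and 5.08% between the mutants. Of 13 intracellular modulators, such as SMAD ubiquitin ligases and SMAD corepressors, none was called by edgeR in any comparison, nor by DESeq2, beside the 9.0% to 13.1% of all genes. Changes under 2-fold did pass the adjusted p of 0.01, in 5 of the 13 in S1S2 (all genes: 37.9%), 4 in G9Gl (all genes: 35.0%) and 4 between the mutants (all genes: 42.6%), and an unadjusted p under 0.05 was reached by 6, 6 and 7. Of 17 further ligands 4 were tested. Bmp8a, a BMP ligand best known from the germ line, rose in S1S2 by 1.19 ± 0.09 on the log2 scale (adjusted p = 0.00019), and Lefty1, a Nodal antagonist, fell in G9Gl with a log2 fold change of -1.0 ± 0.10 (adjusted p = 4.92e-05), at the cutoff. Lefty1 was also lower in S1S2, under 2-fold (-0.66 ± 0.16, adjusted p = 0.00205), and the mutants did not differ past the threshold (adjusted p = 0.117).

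The 25 genes known to respond to TGF-beta, 23 of them tested, moved in both directions in each mutant. In S1S2, 9 were called (all genes: 9.0%), 2 higher and 7 lower, with a median log2 fold change of -0.19 over the list. In G9Gl 8 were called (all genes: 10.2%), each of them higher, with a median of 0.55. Another 5, Col1a1, Col1a2, Col3a1, Klf10 and Snai1, passed the adjusted p in G9Gl with lower values under 2-fold, from -0.18 in Klf10 to -0.86 in Col3a1. At any fold, 13 of the 23 passed it higher and 5 lower in G9Gl, beside 2949 and 2489 of all 15540 genes. In S1S2, 5 passed it higher and 9 lower, beside 3158 and 2737 of all genes. Between the mutants 11 were called (all genes: 13.1%), 10 of them higher in G9Gl. Acta2, smooth muscle actin of contractile fibroblasts, was at 267 ± 16.5 CPM in WT, 41.5 ± 2.30 in S1S2 and 1039 ± 46.4 in G9Gl. Its log2 fold change was -2.68 ± 0.07 (adjusted p = 4.95e-16) in S1S2 and 1.96 ± 0.06 (adjusted p = 5.7e-15) in G9Gl. Postn, the matrix protein periostin, followed the same pattern at -2.82 ± 0.12 and 1.29 ± 0.06, and the mutants differed by 4.65 ± 0.06 in Acta2 and 4.12 ± 0.12 in Postn.

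Not all responsive genes shared that pattern. Ccn2, connective tissue growth factor, rose in both mutants, by 1.67 ± 0.24 (S1S2, adjusted p = 1.59e-08) and 2.35 ± 0.23 (G9Gl, adjusted p = 1.24e-10). Tnc, the matrix protein tenascin C, rose most in G9Gl (3.10 ± 0.08), and Cnn1, a smooth muscle calponin near the floor in WT at 0.183 ± 0.1 CPM, rose by 2.52 ± 0.44. Col3a1, a fibrillar collagen, fell most in S1S2 (-3.01 ± 0.07). Tgfbi was the single responsive gene called lower in G9Gl than in S1S2 (-1.29 ± 0.10). Col1a1, Col1a2, Col3a1 and Fn1 also stand on the fibroblast marker list, of whose 13 tested genes 7 were called in S1S2 (all genes: 9.0%), each lower (all genes: 4.34%), and 4 in G9Gl (all genes: 10.2%), 1 higher and 3 lower. The summed level of 5 skeletal muscle markers, nearly all of it Des, was 2.09 to 2.71 CPM in WT, 2.55 to 3.48 in S1S2 and 7.26 to 8.0 in G9Gl, and Myod1 was at 0 in every library. The part of either marker list in these values was not tested.

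**Figure D5:**
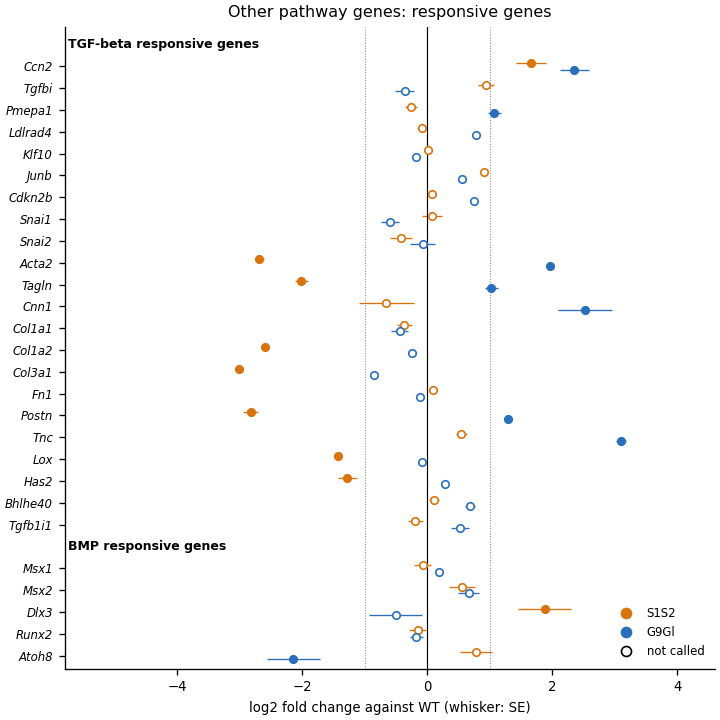
Log2 fold change against WT (x axis) of tested TGF-beta and BMP responsive genes (y axis) in S1S2 and G9Gl, with the SE of 3 replicates per genotype as whiskers, filled points for called genes and dotted lines at a 2-fold change. Acta2 and Postn lie to the left in S1S2 and to the right in G9Gl, while Ccn2 lies to the right in both.

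Of 10 BMP responsive genes beyond the ID genes, 5 were tested. Dlx3, a homeobox gene, rose in S1S2 (1.88 ± 0.42, adjusted p = 0.00137), and Atoh8, a helix-loop-helix gene induced by BMPs, fell in G9Gl (-2.14 ± 0.42, adjusted p = 0.000189). Both were lower in G9Gl than in S1S2, at -2.38 ± 0.18 and -2.92 ± 0.34. Their levels were below 2 CPM in each genotype. Among further receptors, the co-receptor gene Rgma fell in both mutants (-1.23 ± 0.18 and -1.38 ± 0.18), and the endothelial type I receptor gene Acvrl1 rose in G9Gl (3.20 ± 0.21, adjusted p = 5.39e-05) to 0.915 ± 0.148 CPM. Bambi, a pseudoreceptor induced by BMPs, was lower in G9Gl than in S1S2 (-1.44 ± 0.27, adjusted p = 0.000986).

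Extracellular modulators held some of the widest changes. Tll1, a proteinase of the Bmp1 family, was at 3.27 ± 0.429 CPM in WT, 0.359 ± 0.151 in S1S2 and 46.6 ± 1.8 in G9Gl, with log2 fold changes of -3.13 ± 0.35 (adjusted p = 3.35e-09) and 3.83 ± 0.12 (adjusted p = 2.76e-15). Fbn2, a fibrillin of microfibrils, fell in S1S2 (-4.96 ± 0.04) from 293 ± 11.4 to 9.41 ± 0.193 CPM, and by less in G9Gl (-1.10 ± 0.05, adjusted p = 1.46e-12). Lrrc32, which anchors latent TGF-beta on the cell surface, rose in S1S2 (1.90 ± 0.23). It fell in G9Gl at the fold cutoff (-1.005 ± 0.26, adjusted p = 8.33e-05), and G9Gl against S1S2 gave -2.90 ± 0.15. Itgb6, a subunit of an integrin that activates latent TGF-beta, rose in both from a low level (1.57 ± 0.23 and 1.62 ± 0.14). In G9Gl the falls were led by Dcn, the proteoglycan decorin (-5.17 ± 0.25), Chrdl1, a BMP antagonist (-1.88 ± 0.07), and Htra3, a secreted protease below 1 CPM in each genotype (-1.83 ± 0.42).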

How the data were processed

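For 9 libraries the authors deposited unnormalized read counts, with Ensembl genes in rows. Per the study's methods, assumed to cover these libraries, stranded total RNA libraries were sequenced as 75 bp pairs, trimmed with cutadapt, aligned to GRCm38 with STAR (2.5.2b in the submitters' processing notes) and counted with TEtranscripts. For gene expression by promoter mark, the methods name count matrices from snakePipes instead, and which tool gave the deposited counts is not stated. The annotation release and the strand setting of the counting are not given in the sources used here. Total counts were 21319778 to 32157623 per library.

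Gene identifiers were matched without version to GENCODE M21, of GRCm38 (47224 of 47937), which gave symbols, positions and exon lengths. Counts were tested in R 4.3.3 with edgeR 4.0.16: filterByExpr (minimum count 10, 15540 genes kept), TMM, glmQLFit and glmQLFTest over all 9 libraries with a coefficient per genotype. The threshold for a call was a p, adjusted after Benjamini and Hochberg over all genes tested, of no more than 0.01 with a change of 2-fold or more, with the numbers of the study's limits, which it states for a P value not described there as adjusted. The SE comes from log2 CPM with a prior count of 2. The scripts were tested on simulated data.

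The members and lists were chosen with earlier results of these data known. Every member was named by role, with values per library for those called in at least 1 comparison. Of the other pathway genes, at most 3 per list, direction and comparison were named, the called ones with the largest change; some genes this rule would name are not reported here. Promoter windows came from RefSeq (GRCm38.p6), for the 35 members with an entry. Alternatives were DESeq2 1.42.0, its size factors, no composition factor, other filters and thresholds, glmTreat, only the libraries compared, a replicate block, removal of chromosome medians, and leaving out each library.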

Additional observations from a re-analysis of the deposited data

Results flagged for a closer look

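In 4 of the 41 tested genes, against 3.28% of all genes, the mutants moved in opposite directions against WT, each past an adjusted p of 0.01 by the quasi-likelihood test of edgeR, and the difference between the mutants was itself called. The log2 fold change of G9Gl against S1S2 was 5.72 for Bmpr1b, 4.51 for Ltbp2, 1.54 for Ltbp4 and -3.50 for Bmp6. Bmpr1b, Ltbp2 and Ltbp4 were low in S1S2 and high in G9Gl, and Bmp6 was the reverse, in 3 of 3 libraries of each mutant. The comparisons against WT share the WT libraries, and each mutant is, by the study's methods, a single clone.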

How the results depend on the processing

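The pathway genes called, 9 in S1S2, 9 in G9Gl and 13 between the mutants, came to 25, 27 and 33 with an adjusted p up to 0.05 and no fold cutoff and to 23, 22 and 28 at 0.01 with none, and glmTreat called 5 in S1S2, 7 in G9Gl and 7 between the mutants. The other pathway genes called came to 48, 50 and 50 at 0.05 and to 40, 42 and 45 at 0.01 without the fold cutoff, and those of G9Gl to 10 with glmTreat and 11 with at least 10 counts in every library. The remaining counts, including those with a library left out, were within 1.5 times. The same replicate numbers did not pair the samples (correlation of deviations -0.0686 to 0.124), and with the replicate block the counts were 9, 9 and 13 for the pathway genes and 19, 20 and 24 for the others, with no change in the call of a pathway gene.

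No called pathway gene changed sign. Small uncalled log2 fold changes reversed. With chromosome medians removed, Ltbp3 (-0.227), Fstl3 (0.0654) and Smad1 (-0.0143) did so in S1S2, and Gdf11 (-0.017), Ltbp3 (0.428), Fstl3 (-0.154) and Smad7 (-0.0096) between the mutants. Ltbp3 lies on chromosome 19, whose median was 0.34 in S1S2 and -0.52 between the mutants. Without a composition factor Fstl1 (-0.0102) reversed in S1S2 and Ltbp3 (-0.0063) in G9Gl, and Smad5 in G9Gl was at 0.0025 with DESeq2, 0.0035 with its size factors and 0.0025 with at least 10 counts in every library. With each library left out in turn, the lowest and highest values were -0.0773 and 0.179 for Inhba, -0.0045 and 0.049 for Fstl1, -0.0821 and 0.0015 for Smad2 and -0.0321 and 0.115 for Id3 in S1S2, -0.153 and 0.0321 for Tgfb3, -0.041 and 0.11 for Ltbp3, -0.0875 and 0.003 for Fstl3 and -0.0194 and 0.0135 for Smad5 in G9Gl, and -0.0336 and 0.141 for Fstl3, -0.0415 and 0.0207 for Smad4 and -0.0159 and 0.0813 for Smad7 between the mutants. Smad6 in G9Gl crossed the fold cutoff without a filter (-1.0016), without a composition factor (-1.03), with chromosome medians removed (-1.03) and, like Ltbp4 in S1S2, Fst in G9Gl and Id1 between the mutants, without certain single libraries. In all other listed cases the cause was not tested. Depth limits genes near the floor, such as Bmpr1b in S1S2.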
